A study of Mus musculus with 6 samples.

Results

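The insulin-like growth factor (IGF) axis was examined in RNA-seq libraries of cultured mouse satellite cells (SCs), the stem cells of skeletal muscle, from mice with and without a conditional deletion in the gene of the transcription factor subunit NF-YA. It was taken as 10 genes chosen by name, with earlier results of these data known, out of the 35976 genes in the expression files. They are the ligand genes Igf1 and Igf2, the non-coding RNA gene H19, the receptor genes Igf1r and Igf2r, and Igfbp2, Igfbp3, Igfbp4, Igfbp5 and Igfbp6, which encode secreted binding proteins. There were 3 libraries from NF-YA cKO mice and 3 from NF-YA fl/fl mice. Both genotypes carried floxed NF-YA alleles and received tamoxifen (20 mg/ml) at 5 to 7 weeks of age, according to the labels, while the study's methods give a slightly older age. NF-YA cKO mice also carried Pax7-CreERT2, a tamoxifen-activated Cre recombinase produced in cells that express Pax7, whereas NF-YA fl/fl mice carried no Cre. The study's methods describe male mice, 5 daily injections, removal of the muscles 7 days later and 4 days of SC culture in growth medium. SCs were enriched there by removing other cells with magnetic beads against CD31, CD45, CD11b and Sca1, so that cells of other types can remain.

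The libraries held 26936230 to 41118984 expected counts. Levels are given as CPM, the counts scaled to a common library size after normalization for composition. Where different genes or transcripts are compared they are given as TPM, which also accounts for length. An entry added by the authors for the deleted Nfya transcript took 22.3%, 26.4% and 34.2% of the Nfya counts in NF-YA cKO replicates 1, 2 and 3, and 0 counts in each NF-YA fl/fl library. By TPM its share was 27.25%, 31.96% and 40.54% in these NF-YA cKO replicates. Reads are divided among forms that share sequence, so these shares are estimates and not a measure of how complete the deletion was. Total Nfya was at 27.0, 28.5 and 27.0 CPM in NF-YA cKO and at 23.4, 25.7 and 36.9 CPM in the controls (log2 fold change -0.06, SE 0.18, FDR 0.814, edgeR's quasi-likelihood test), so that most Nfya counts of NF-YA cKO were assigned to transcripts other than the deleted entry. Xist, an RNA of the inactive X chromosome, was at 835 to 852 CPM in NF-YA cKO and at 0.306 to 0.475 CPM in NF-YA fl/fl, while the Y-linked gene Ddx3y was at 0.0470 to 0.0956 and 80.9 to 88.5 CPM. Genotype and sex-linked expression therefore cannot be told apart in any comparison below, and this pattern goes against the male mice of the methods. None of the 10 genes lies on the X or Y chromosome. The 8 SC and myoblast markers examined were all detected in every library. In cultures of mixed cells this does not show what share of the cells were SCs. Pax7, which marks SCs, was at 145, 165 and 201 CPM in NF-YA cKO and at 73.5, 87.5 and 105 CPM in the NF-YA fl/fl libraries. NF-YA fl/fl replicate 3 stood apart from the other libraries of its genotype. It differed from them by a root mean square of 0.734 and 0.868 in log2 CPM over all tested genes, while the other pair differed by 0.505 and the NF-YA cKO pairs by 0.351 to 0.386. Results that rest on this library are given with and without it.

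IGF-I and IGF-II are secreted peptides that act through the tyrosine kinase receptor encoded by Igf1r. In muscle cells they stimulate both proliferation and differentiation, and Igf2 is known to be induced as myoblasts differentiate. The product of Igf2r binds IGF-II and carries it to lysosomes, and the IGF binding proteins hold the ligands outside the cell and alter their access to receptors. Igf2 and H19 are neighbouring imprinted genes. Igf2 is expressed from the paternal allele and H19 from the maternal allele, under shared enhancers, and Igf2r is expressed from the maternal allele in most mouse tissues.

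On GRCm38, Igf2 lies at chr7:142650766-142666816 and H19 at chr7:142575529-142578143, both on the minus strand. Each hosts a microRNA gene. Mir675 lies within an exon of 3 of the 4 H19 transcripts that span it, and Mir483 lies in an intron of all 7 Igf2 transcripts that span it. Their mature sequences are printed because these host genes carry the largest differences described below. The sequences are from RefSeq (GRCm38.p6), written 5′ to 3′, and the capitals mark the seed (bases 2 to 8). The 4 seeds differ from each other.
mmu-miR-675-5p: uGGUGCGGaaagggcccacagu
mmu-miR-675-3p: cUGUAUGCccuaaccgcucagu
mmu-miR-483-5p: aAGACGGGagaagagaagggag
mmu-miR-483-3p: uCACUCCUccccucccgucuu
The precursor entries, 84 nt for Mir675 and 73 nt for Mir483, had an effective length of 0 and 0 counts in all 6 libraries. The microRNAs themselves were thus not measured.

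The NF-Y complex binds the CCAAT box, so this motif was searched in promoter windows, on both strands (CCAAT or ATTGG), from 250 bases before to 50 bases after each transcription start in RefSeq (GRCm38.p6). Of the 10 genes, 9 had at least 1 window, and the motif was present in 3 of their 13 windows (23.1%), against 12289 of all 32851 windows (37.4%). These 3 windows belonged to Igf2, Igf1 and Igfbp6. The 250 bases before the start are printed for each of them, on the strand of the gene, with the motif in capitals. In Igf2 (chr7:142657497-142657746, minus strand) ATTGG began 231 bases before the start. The motif began 142 bases before the start in the Igf1 window (chr10:87860861-87861110, plus strand), and 107 and 50 bases before it in the Igfbp6 window (chr15:102143936-102144185, plus strand).
Igf2 promoter: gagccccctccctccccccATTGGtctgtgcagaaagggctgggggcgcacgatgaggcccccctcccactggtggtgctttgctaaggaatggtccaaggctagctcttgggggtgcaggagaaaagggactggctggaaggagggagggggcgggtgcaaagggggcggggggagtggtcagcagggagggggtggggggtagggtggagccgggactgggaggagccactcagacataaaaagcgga
Igf1 promoter: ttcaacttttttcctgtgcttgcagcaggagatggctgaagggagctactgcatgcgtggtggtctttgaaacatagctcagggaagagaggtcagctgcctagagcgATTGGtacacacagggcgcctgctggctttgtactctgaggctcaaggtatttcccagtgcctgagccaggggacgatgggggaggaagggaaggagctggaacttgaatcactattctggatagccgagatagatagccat
Igfbp6 promoter: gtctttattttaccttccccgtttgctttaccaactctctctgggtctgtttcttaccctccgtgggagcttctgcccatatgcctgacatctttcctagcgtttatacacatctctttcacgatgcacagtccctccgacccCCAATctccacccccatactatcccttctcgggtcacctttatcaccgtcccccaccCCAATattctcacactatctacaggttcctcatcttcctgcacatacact
A match of these letters is a description of the sequence and not a site of NF-Y binding.

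Of the 10 axis genes, Igf2, H19 and Igf2r were lower in SCs of NF-YA cKO mice. Igf2 was 94.6-fold lower, H19 7.91-fold lower and Igf2r 2.58-fold lower by the fitted fold change. Igf1r was also lower, by 1.78-fold, which is below the fold change needed for a call. Igf1 and the 5 binding protein genes did not pass the FDR. A call required an adjusted p (FDR) under 0.01 and, on the log2 scale, a fold change past 1 or -1, with edgeR's quasi-likelihood test and Benjamini-Hochberg adjustment over 17348 genes. All 10 genes were tested, with at least 179 counts in each library, and 3 of them (30%) were called lower, against 7.67% of all tested genes. By the same test 0 of the 10 were called higher, against 4.65%, with 0 of them higher at an unadjusted p under 0.05 and 0 called higher by DESeq2. Without NF-YA cKO replicate 2 only Igf2r was called, and without NF-YA fl/fl replicate 3 there were 4 calls, Igfbp6 being the fourth. The median of the log2 fold changes was -0.89 for the 10 genes and -0.02 for all tested genes. The 3 libraries of each genotype did not overlap in 5 of the 10 genes, all lower in NF-YA cKO. Over all tested genes 55.3% did not overlap, and 26.2% were without overlap and lower in NF-YA cKO. Since the 10 genes were chosen with earlier results of these data known, these shares and medians are descriptions and not a test. The labels do not say whether each library came from a separate mouse, and the p-values measure only the spread between these libraries, which may be technical.

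**Figure D1:**
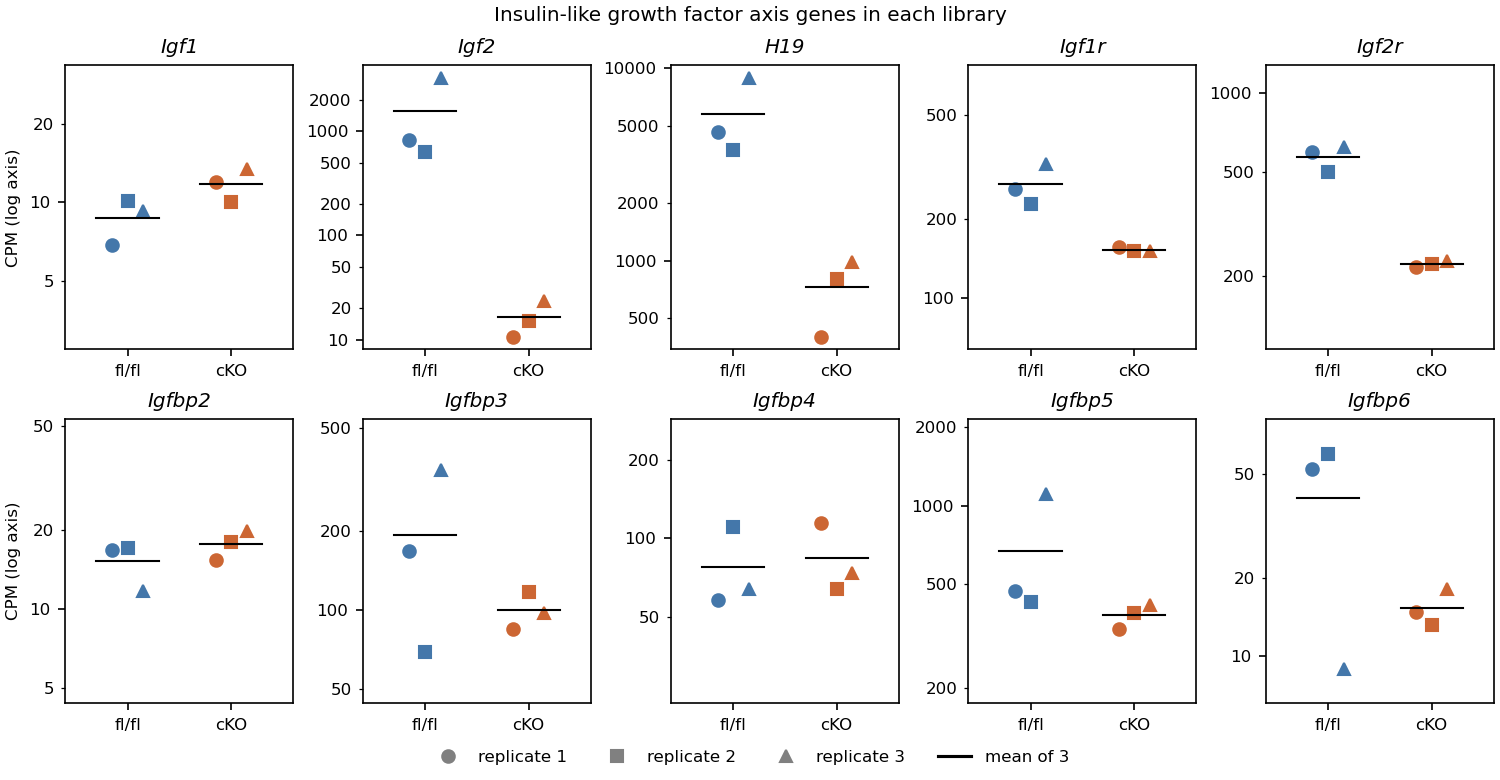
Level of each of the 10 axis genes in every library, in CPM on a log axis with its own range in each panel; NF-YA fl/fl libraries are blue, NF-YA cKO libraries orange, the marker shape gives the replicate number and the line the mean of 3. The libraries of the genotypes are apart in Igf2, H19, Igf1r, Igf2r and Igfbp5, and NF-YA fl/fl replicate 3 lies away from the other libraries of its genotype in Igf2, H19, Igfbp3, Igfbp5 and Igfbp6.

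Igf2, which encodes IGF-II, was at 10.7, 15.2 and 23.5 CPM in NF-YA cKO replicates 1, 2 and 3. In NF-YA fl/fl replicates 1, 2 and 3 it was at 820, 633 and 3226 CPM. Every NF-YA fl/fl library was thus far above every NF-YA cKO library, and replicate 3 was the highest. The means were 16.5 ± 6.51 and 1560 ± 1446 CPM (SD, n = 3 each), with a log2 fold change of -6.56 (SE 0.80) and an FDR of 0.00155 (edgeR's quasi-likelihood test). Igf2 held rank 104 from the lowest log2 fold change among the 17348 tested genes. Without NF-YA fl/fl replicate 3 the log2 fold change was -5.46 (FDR 9.28e-05), and without NF-YA cKO replicate 2 the FDR was 0.0132, above the threshold. In cultures of mixed cells, fewer cells of a type and less RNA per cell cannot be told apart. Beside Igf2, 16 of 16 markers of muscle differentiation were called lower, against 7.67% of all tested genes. Their summed level was 90.7 to 212 CPM in NF-YA cKO and 11852 to 16410 CPM in NF-YA fl/fl, and their part in the result was not tested.

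The expression files list 6 Igf2 transcripts, of which 5 were matched to the annotation. They differ in first exon and length. The leading form, 1541 nt long with its start at position 142657496 of chromosome 7, right after the promoter sequence printed above, was at 3.82, 3.52 and 6.63 TPM in NF-YA cKO and at 242, 210 and 700 TPM in NF-YA fl/fl. A longer form from the same start, 3706 nt, was at 0, 0.58 and 3.59 against 131, 138 and 447 TPM. Both forms of this start were low in all NF-YA cKO libraries. The form of 4038 nt, starting at 142659489, was at 0.23, 0.28 and 0.66 TPM against 15.6, 13.5 and 92.9 TPM. The form of 3937 nt, starting at 142661305, was at 0.31, 0.19 and 0.30 TPM against 5.21, 10.1 and 25.8 TPM. These 4 forms showed no overlap between the genotypes (two-sided exact permutation test, p = 0.1, which is the lowest that 3 libraries against 3 allow). The form of 3638 nt, from the most distant start at 142666816, was at 1.40, 1.72 and 0.09 TPM in NF-YA cKO and at 12.1, 0 and 2.10 TPM in NF-YA fl/fl, so that the genotypes overlapped (exact permutation test, p = 0.5). The unmatched form of 4057 nt was at 0 in NF-YA cKO and at most 0.17 TPM in NF-YA fl/fl. The start at 142657496 gave 66.4%, 65.1% and 90.7% of Igf2 TPM in NF-YA cKO and 91.9%, 93.6% and 90.5% in NF-YA fl/fl (74.1% ± 14.4 against 92.0% ± 1.58, SD, n = 3 each, exact permutation test, p = 0.2). NF-YA cKO replicate 3 was within the range of the controls and the other libraries were below it. RSEM shares reads among these overlapping transcripts, so each level is an estimate.

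H19, a long non-coding RNA gene of the same imprinted region, was at 402, 798 and 987 CPM in NF-YA cKO. In NF-YA fl/fl it was at 4676, 3745 and 8879 CPM. The genotypes did not overlap, and NF-YA fl/fl replicate 3 was again the highest library. The log2 fold change was -2.98 (SE 0.45) with an FDR of 0.00314 (729 ± 298 against 5766 ± 2735 CPM, SD, n = 3 each, edgeR's quasi-likelihood test). Leaving out NF-YA cKO replicate 1, 2 or 3 or NF-YA fl/fl replicate 1 gave an FDR of 0.0102, 0.0195, 0.0113 and 0.0118, and the call was then lost. Without NF-YA fl/fl replicate 3 the log2 fold change was -2.53 (FDR 0.00156).

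Both transcripts fell in NF-YA cKO, but their ratio was not the same in the libraries. Igf2 reached 2.67%, 1.73% and 2.21% of the H19 level by TPM in NF-YA cKO and 16.4%, 15.4% and 32.5% in NF-YA fl/fl. This ratio was chosen after the values were seen and is given as a description. By mean TPM H19 ranked 24 among all genes in NF-YA fl/fl and 246 in NF-YA cKO, while Igf2 ranked 149 and 7475.

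Other genes of the Igf2 and H19 region were also examined, from a list of 10, likewise chosen with earlier results known. Of the list, 7 were tested. Of these, 5 were called lower in NF-YA cKO and 0 higher (0 higher at an unadjusted p under 0.05 and 0 by DESeq2), against 7.67% lower and 4.65% higher of all tested genes. The calls were 3 without NF-YA cKO replicate 1 or NF-YA fl/fl replicate 1, and 2 without NF-YA cKO replicate 2. Nctc1, a non-coding RNA gene beyond H19 at chr7:142544609-142558596, had 2, 5 and 2 counts in NF-YA cKO and 133, 158 and 177 counts in NF-YA fl/fl (FDR 0.000107, edgeR's quasi-likelihood test). Tnnt3, which encodes fast skeletal troponin T, was at 6.85, 11.4 and 15.8 CPM in NF-YA cKO and at 562, 435 and 272 CPM in the NF-YA fl/fl libraries (log2 fold change -5.21, SE 0.42, FDR 0.000360). For both genes every NF-YA cKO library was below every NF-YA fl/fl library. Tnni2, the gene of fast skeletal troponin I, was at 0.956, 2.19 and 3.90 CPM against 70.8, 45.6 and 40.4 CPM (log2 fold change -4.45, SE 0.50, FDR 0.00115). Without NF-YA cKO replicate 2 the FDR of Tnni2 was 0.0112, and without NF-YA cKO replicate 3 its log2 fold change was -5.05. Tnnt3 and Tnni2 also belong to the muscle differentiation markers, and in both of them NF-YA fl/fl replicate 3 was the lowest control library, unlike in Igf2 and H19. Igf2os and Syt8 were also called lower, but with each library left out Igf2os was called only without NF-YA fl/fl replicate 2 or 3 and Syt8 only without NF-YA fl/fl replicate 3. Igf2os lies antisense to Igf2 (chr7:142659693-142670356, plus strand), and its level was 0.338 to 0.587 CPM against 1.99 to 6.99 CPM. The libraries were prepared with a stranded kit, but the strand setting of the counting is not given in the sources used here, so reads of Igf2 and Igf2os may not be fully separated. The mitochondrial ribosomal protein gene Mrpl23, beyond Nctc1, was not called (28.9 to 32.8 CPM against 20.3 to 37.5 CPM, FDR 0.631).

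**Figure D2:**
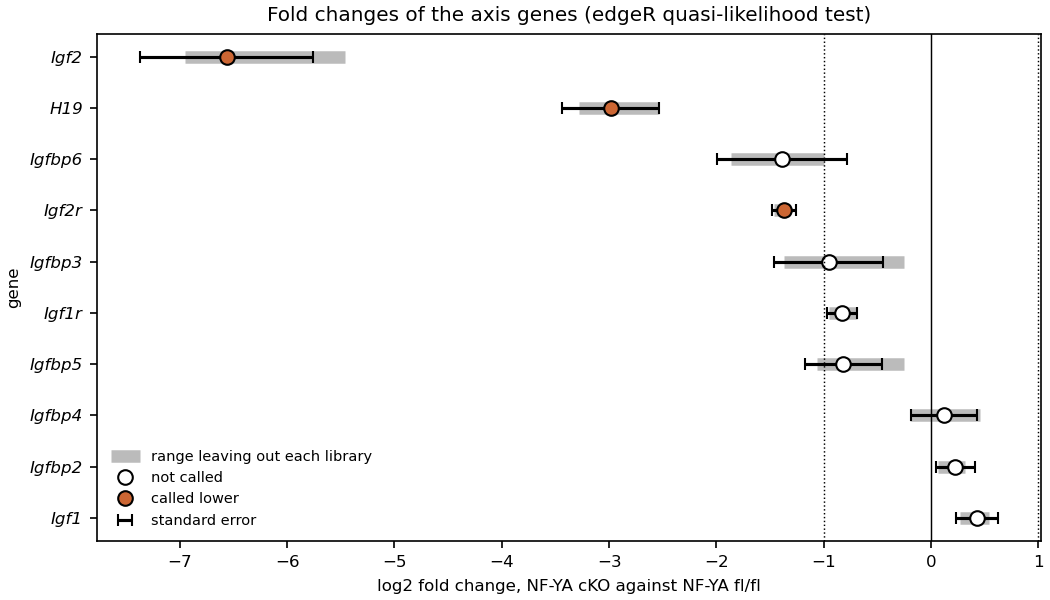
Log2 fold change of each axis gene in NF-YA cKO against NF-YA fl/fl, with its standard error (bars) and the range when each library is left out in turn (grey); dotted lines mark a log2 fold change of -1 and 1, and filled points are called genes. Igf2 is lowest at -6.56, followed by H19 at -2.98, while Igfbp6 at -1.39 has a wider error than Igf2r at -1.37.

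Igf1 encodes IGF-I (chr10:87858265-87937042, plus strand). Its level was low in both genotypes, at 11.9, 10.01 and 13.4 CPM in NF-YA cKO and at 6.84, 10.1 and 9.26 CPM in the NF-YA fl/fl libraries. NF-YA cKO replicate 2 lay within the range of the controls. The log2 fold change was 0.43 (SE 0.20, FDR 0.130, edgeR's quasi-likelihood test; 11.8 ± 1.68 against 8.74 ± 1.71 CPM, SD, n = 3 each) and the difference did not pass. Macrophages, a known source of IGF-I in muscle, had 11 of 12 markers called higher in NF-YA cKO, although the beads against CD45 and CD11b bind such cells. Over all tested genes 4.65% were called higher. Ptprc, which encodes CD45, was at 1.15 to 3.06 CPM in NF-YA cKO and at 0 to 0.170 CPM in NF-YA fl/fl. Itgam, which encodes CD11b, was at 6.20 to 11.3 against 0.862 to 1.45 CPM. The summed level of the 12 markers was 148 to 293 CPM in NF-YA cKO and 6.71 to 16.5 CPM in NF-YA fl/fl. Most of the NF-YA cKO sum came from Lyz2, at 101 to 203 CPM against 1.97 to 6.24 CPM. With each library left out in turn, Lyz2, Ctss and Itgam were called in all 6 fits, C1qa in 1 and C1qb in 0. The part of macrophages in the Igf1 level was not tested.

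Of 14 listed Igf1 transcripts, 10 were above 0 in at least 1 library and 5 were matched to the annotation. The matched forms differ in their start and in a 52-nt exon near the 3′ end of the coding region, whose inclusion gives the Eb form of the precursor in place of the Ea form. The 7125-nt form with this exon was at 0.91, 0.84 and 0.80 TPM in NF-YA cKO and at 0.26, 0.26 and 0 TPM in NF-YA fl/fl, without overlap (two-sided exact permutation test, p = 0.1). The main form without it, 7073 nt, was at 0.93, 0.43 and 0.97 TPM against 0.59, 1.47 and 1.02 TPM, with overlap. Forms with the exon made up 50.3%, 60.3% and 44.5% of Igf1 TPM in NF-YA cKO and 23.5%, 13.2% and 0% in NF-YA fl/fl (51.7% ± 8.01 against 12.2% ± 11.8, SD, n = 3 each, exact permutation test, p = 0.1). The share was thus higher in every NF-YA cKO library, while total Igf1 overlapped between the genotypes. These shares rest on 189, 252 and 255 expected counts in NF-YA cKO and 42.4, 45.5 and 0 in NF-YA fl/fl, with reads divided among forms that share most of their sequence. Unmatched forms, whose exons were not known here, held 1.89% to 9.10% of Igf1 TPM in NF-YA cKO and 10.2% to 11.9% in NF-YA fl/fl. One of them, a form of 6869 nt, was at 0, 0 and 0.06 TPM against 0.13, 0.14 and 0.13 TPM (exact permutation test, p = 0.1). Of the 14 listed Igf1 and 6 listed Igf2 transcripts, 6 did not overlap, with 1 higher and 5 lower in NF-YA cKO. The lower ones were mostly the Igf2 forms described above. The share without overlap over all transcripts was not computed, and over all tested genes it was 55.3%.

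**Figure D3:**
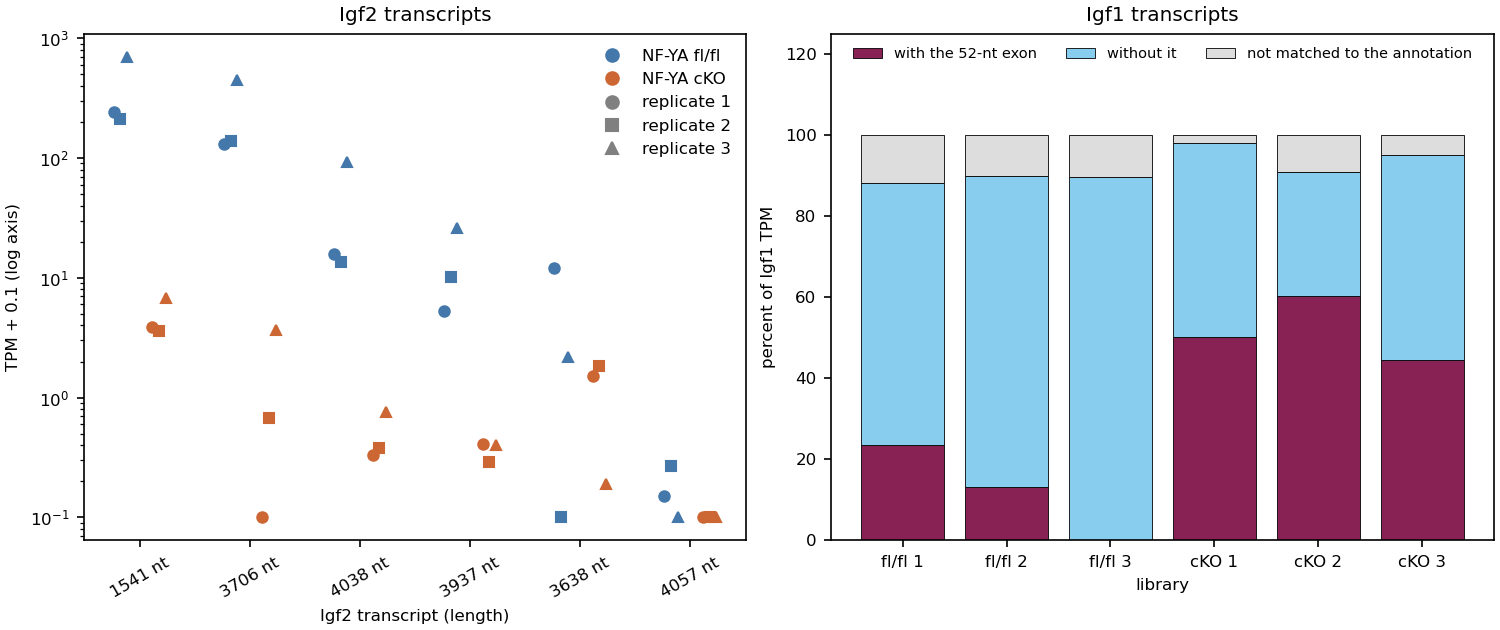
Left, each listed Igf2 transcript in every library, as TPM + 0.1 on a log axis, named by its length; right, the percent of Igf1 TPM from transcripts with a 52-nt exon, without it, and not matched to the annotation. The 4 Igf2 forms on the left side of the axis are lower in all NF-YA cKO libraries, and the share of Igf1 with the 52-nt exon is 44.5% or more in NF-YA cKO and 23.5% or less in NF-YA fl/fl.

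Igf1r encodes the receptor through which both ligands signal (chr7:67952827-68233668, plus strand). It was at 157, 151 and 151 CPM in NF-YA cKO and at 261, 229 and 326 CPM in the NF-YA fl/fl libraries. The NF-YA cKO libraries lay close together and below all controls. The log2 fold change was -0.83 (SE 0.14) with an FDR of 0.00451, so that the gene passed the FDR but not the fold change of the call (153 ± 3.48 against 272 ± 49.4 CPM, SD, n = 3 each). At an FDR under 0.01 and any fold change, 4 of the 10 axis genes were lower, against 9.97% of all tested genes. By the same test 0 were higher. Leaving out any 1 NF-YA cKO library or NF-YA fl/fl replicate 1 raised the FDR of Igf1r to between 0.0163 and 0.0234. Without NF-YA fl/fl replicate 3, its highest library, the log2 fold change of Igf1r was -0.69 (FDR 0.000915). Igf2r, the gene of the IGF-II clearance receptor (chr17:12682406-12769664, minus strand), was at 216, 222 and 227 CPM in NF-YA cKO. In NF-YA fl/fl it was at 598, 498 and 620 CPM. All NF-YA cKO libraries were below all controls, and NF-YA fl/fl replicate 3 was close to replicate 1. The log2 fold change of Igf2r was -1.37 (SE 0.11, FDR 0.000400, edgeR's quasi-likelihood test; 222 ± 5.77 against 572 ± 65.0 CPM, SD, n = 3 each), and it was called with each library left out in turn. The antisense gene Airn (chr17:12741311-12860136, plus strand) overlaps Igf2r and was looked at after its host's values were seen. Airn was at 2.17, 2.53 and 2.91 CPM in NF-YA cKO and at 8.83, 11.2 and 10.4 CPM in the NF-YA fl/fl libraries (log2 fold change -1.99, SE 0.19, FDR 0.000653). Without a known strand setting for the counting of these stranded libraries, reads of the overlapping parts cannot be told apart, but all Airn levels were small beside those of Igf2r.

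The ratio of ligand to clearance receptor, also chosen after the values were seen, differed in direction between the genotypes. By TPM, Igf2 was 0.206, 0.257 and 0.396 times the level of Igf2r in NF-YA cKO and 5.33, 4.79 and 19.2 times its level in NF-YA fl/fl. Igf2 was thus below Igf2r in all NF-YA cKO libraries and above it in all controls.

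None of the 5 binding protein genes was called by edgeR's quasi-likelihood test. Igfbp5 encodes a binding protein linked to muscle differentiation and extracellular matrix (chr1:72857932-72874884, minus strand). It was at 338, 387 and 415 CPM in NF-YA cKO and at 473, 427 and 1109 CPM in the NF-YA fl/fl libraries. The genotypes did not overlap, but NF-YA fl/fl replicate 3 was far above the other controls (log2 fold change -0.82, SE 0.36, FDR 0.116, edgeR's quasi-likelihood test). Without that library the log2 fold change was -0.25. Igfbp3, the main carrier of IGFs in serum (chr11:7206086-7213923, minus strand), was at 84.5, 117 and 97.7 CPM in NF-YA cKO. In NF-YA fl/fl it was at 168, 69.0 and 343 CPM. One control was below all NF-YA cKO libraries and replicate 3 was again the highest (log2 fold change -0.95, SE 0.51, FDR 0.180), and without it the log2 fold change was -0.25.

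Igfbp6, whose product prefers IGF-II over IGF-I (chr15:102144362-102149511, plus strand), was at 14.8, 13.2 and 18.2 CPM in NF-YA cKO and at 52.3, 59.6 and 8.99 CPM in the NF-YA fl/fl libraries. Here NF-YA fl/fl replicate 3 was the lowest of all 6 libraries, and the other controls were the highest. The log2 fold change was -1.39 (SE 0.61, FDR 0.112, edgeR's quasi-likelihood test). Without this library it was -1.87 and the FDR was 0.000239, so that Igfbp6 would be called. In some lists of markers of other cells the same library had the lowest sum of the controls, while in the Schwann cell list it had the highest. The 10 markers of fibro-adipogenic progenitors summed to 1390, 1506 and 727 CPM in the NF-YA fl/fl replicates 1, 2 and 3 and to 815 to 974 CPM in NF-YA cKO. Most of this sum came from Col3a1, at 1153, 1216 and 682 CPM in the NF-YA fl/fl replicates and 619 to 756 CPM in NF-YA cKO. The 7 pericyte and smooth muscle markers summed to 637, 730 and 252 CPM in the NF-YA fl/fl libraries and to 233 to 327 CPM in NF-YA cKO. Of the tested markers, 1 of 9 fibro-adipogenic markers was called higher and 1 of 6 pericyte markers lower, against 4.65% and 7.67% of all tested genes. The pericyte marker called was Abcc9, at 1.11 to 2.02 CPM in NF-YA cKO and 78.8, 57.7 and 71.2 CPM in NF-YA fl/fl. Unlike in the list sum, NF-YA fl/fl replicate 3 was not its lowest control. The part of these cells in the level of Igfbp6 was not tested.

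Igfbp4, whose product is known to restrain IGF action (chr11:99041244-99054392, plus strand), was at 115, 64.3 and 73.8 CPM in NF-YA cKO and at 58.3, 110 and 64.1 CPM in the NF-YA fl/fl libraries. The genotypes overlapped (log2 fold change 0.12, SE 0.31, FDR 0.784, edgeR's quasi-likelihood test), and the sign turned when NF-YA cKO replicate 1 or NF-YA fl/fl replicate 1 or 3 was left out. Igfbp2 (chr1:72824503-72852474, plus strand), a neighbour of Igfbp5, was at 15.4, 18.1 and 19.9 CPM in NF-YA cKO. In NF-YA fl/fl it was at 16.7, 17.2 and 11.7 CPM, again with overlap (log2 fold change 0.23, SE 0.19, FDR 0.366). Without NF-YA fl/fl replicate 3, the lowest library, the log2 fold change of Igfbp2 was 0.0645. A fold change that misses the threshold does not show that these genes were equal between the genotypes.

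The order of levels among the 10 genes was compared by TPM. In NF-YA fl/fl it ran H19 (2929 ± 841 TPM), Igf2 (681 ± 507), Igfbp5 (126 ± 48.9), Igfbp3 (88.03 ± 49.6), Igf2r (73.3 ± 6.26), Igfbp4 (48.4 ± 26.9), Igfbp6 (44.3 ± 33.6), Igf1r (25.4 ± 0.890), Igfbp2 (18.0 ± 6.64) and Igf1 (1.46 ± 0.486). Neighbours from Igfbp5 down to Igf1r overlapped in their library ranges, and the other neighbours did not. In NF-YA cKO the order was H19 (363 ± 148 TPM), Igfbp5 (71.1 ± 7.82), Igfbp4 (48.0 ± 18.6), Igfbp3 (46.3 ± 3.86), Igf2r (26.9 ± 2.15), Igfbp2 (19.6 ± 1.96), Igfbp6 (14.7 ± 3.21), Igf1r (13.6 ± 1.36), Igf2 (7.77 ± 3.04) and Igf1 (1.82 ± 0.376). There, Igfbp5 and Igfbp4, Igfbp4 and Igfbp3, and Igfbp6 and Igf1r overlapped. Igf2 was thus the second of the 10 in the controls and the last but one in NF-YA cKO, and H19 was first in both genotypes.

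The rest of the pathway was described with lists of 47 further genes, also chosen with earlier results known. Of these, 41 were tested. In NF-YA cKO, 4 of the 41 (9.76%) were called lower, near the 7.67% of all tested genes, and 0 were called higher. Without any 1 NF-YA cKO library 1 gene was called, without NF-YA fl/fl replicate 1 there were 2 and without NF-YA fl/fl replicate 3 there were 6. There were 2 higher at an unadjusted p under 0.05 and 0 called higher by DESeq2. There was no overlap between the genotypes in 21 genes that were lower (51.2%) and in 3 that were higher (7.32%), against 26.2% and 29.1% of all tested genes. The median log2 fold change was -0.37.

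The genes called were the insulin receptor, a pair of RNA-binding proteins and a phosphatase. Insr, which encodes the insulin receptor, a relative of Igf1r, was at 37.2, 35.8 and 38.5 CPM in NF-YA cKO and at 79.8, 58.6 and 104 CPM in the NF-YA fl/fl libraries (log2 fold change -1.12, SE 0.20, FDR 0.00567, edgeR's quasi-likelihood test). The NF-YA cKO libraries were all below the controls. It was called only without NF-YA fl/fl replicate 2 when each library was left out. Without NF-YA fl/fl replicate 3 its log2 fold change was -0.90, and the other 4 settings gave an FDR of 0.0220 to 0.0284. The genes of insulin itself, Ins1 and Ins2, were at 0 in all libraries, and Insrr had at most 2 counts in a library.

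The Igf2bp genes encode proteins that bind Igf2 and other mRNAs. Igf2bp1 was at 1.66, 1.37 and 1.32 CPM in NF-YA cKO and at 9.36, 4.73 and 6.10 CPM in the NF-YA fl/fl libraries (log2 fold change -2.21, SE 0.30, FDR 0.00209). Igf2bp3 was at 3.12, 3.55 and 3.17 CPM against 8.83, 8.68 and 5.56 CPM (log2 fold change -1.23, SE 0.22, FDR 0.00623). Each NF-YA cKO library was below all controls in both genes. Leaving out any 1 NF-YA cKO library raised the FDR of Igf2bp1 to between 0.0108 and 0.0161, and Igf2bp3 kept its call only in the absence of NF-YA fl/fl replicate 3 (FDR 0.0144 to 0.0323 without another library). Igf2bp2 passed the FDR at a smaller change (log2 fold change -0.76, FDR 0.00347).

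Among 30 tested genes of signalling downstream of the receptors, 1 was called (3.33%), against 7.67% of all tested genes called lower. Inppl1, the gene of the lipid phosphatase SHIP2, which removes a phosphate from the product of PI3-kinase, was at 197, 191 and 207 CPM in NF-YA cKO and at 499, 434 and 458 CPM in the NF-YA fl/fl libraries. All controls were above all NF-YA cKO libraries (log2 fold change -1.22, SE 0.10, FDR 0.000347, edgeR's quasi-likelihood test), and the call held with each library left out. At any fold change 5 of the 30 genes passed the FDR, all lower, against 9.97% of all tested genes lower at this threshold. Of 7 tested other binding proteins and their proteases, 0 were called by edgeR and by DESeq2, with 1 lower at an unadjusted p under 0.05 and a median log2 fold change of -0.64.

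**Figure D4:**
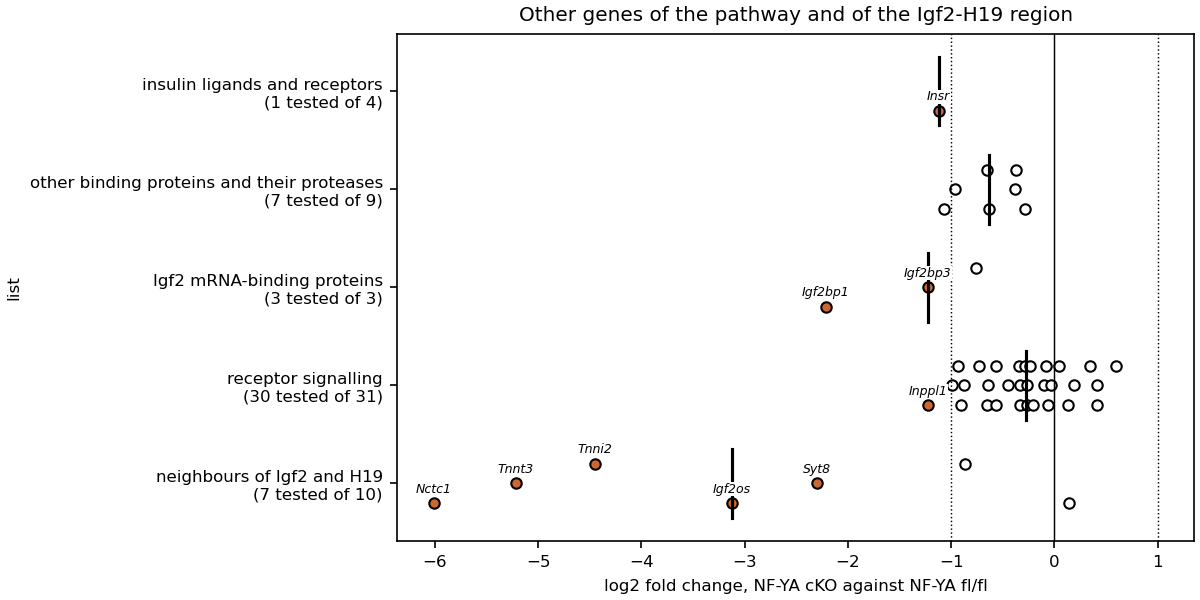
Log2 fold change in NF-YA cKO against NF-YA fl/fl of each tested gene in the lists of other pathway genes and of neighbours of Igf2 and H19; filled points are called genes, named beside them, thick lines are list medians and dotted lines mark a log2 fold change of -1 and 1. Filled points are to the left in 4 of the 5 lists, and 5 of the 7 neighbours are called.

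The genes whose pattern over the 6 libraries was most like that of Igf2 were found among 9455 genes of at least 10 CPM, by the root mean square difference of log2(CPM + 0.1) after centring each gene. They were Tmem8c (0.449), which encodes the myoblast fusion protein myomaker, Mylk4 (0.475), a kinase gene, and Myog (0.524), which encodes the myogenic regulator myogenin. Myog was at 10.7, 18.7 and 31.4 CPM in NF-YA cKO and at 964, 583 and 1450 CPM in the NF-YA fl/fl libraries. Tmem8c was at 1.498, 2.46 and 3.95 CPM against 253, 153 and 389 CPM, and Mylk4 at 0.860, 1.21 and 1.503 CPM against 96.5, 81.7 and 156 CPM. In these genes as in Igf2 and H19, NF-YA cKO replicate 3 was the highest NF-YA cKO library and NF-YA fl/fl replicate 3 the highest control. The 3 genes were picked for their likeness to Igf2 over these same libraries, so the order they share with it largely follows from the choice. For Igf1 the nearest patterns were those of Mpv17l (0.0871), Tspyl4 (0.09997) and Dcaf17 (0.108). Igf1 itself ranged only from 6.84 to 13.4 CPM over the 6 libraries.

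**Figure D5:**
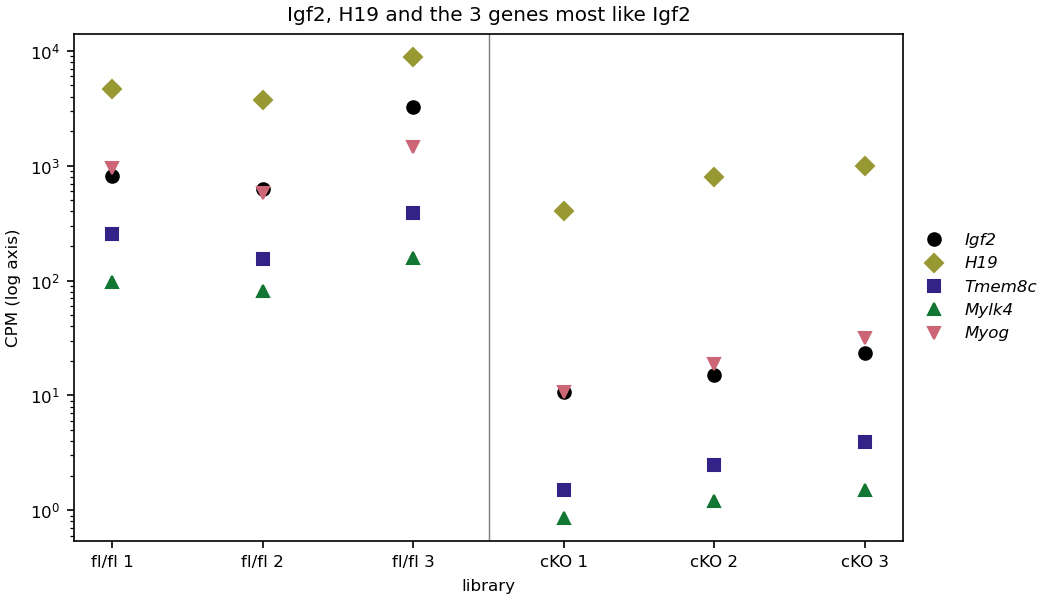
Igf2, H19 and the 3 genes with the most similar pattern to Igf2 in every library, in CPM on a log axis. In each gene NF-YA fl/fl replicate 3 is the highest control and NF-YA cKO replicate 3 the highest NF-YA cKO library, which for the 3 similar genes largely follows from their choice.

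The other cell markers were also compared, since they move with some of the results above. Of 8 SC and myoblast markers Des and Cdh15 were called lower, while Pax7 (log2 fold change 0.94, FDR 0.00624) and Sdc4 (0.80, FDR 0.00446) passed the FDR as higher, below the fold change of a call (edgeR's quasi-likelihood test). The 8 markers had sums of 1758 to 2024 CPM in NF-YA cKO and 2672 to 4436 CPM in NF-YA fl/fl. Des alone was at 295 to 373 against 1217 to 1527 CPM. Of the 8, 4 were lower without overlap and 2 (Pax7 and Sdc4) were higher without overlap. Over all tested genes these shares were 26.2% and 29.1%. The sum therefore does not describe each marker. Endothelial markers, 1 of 5 tested called higher, summed to 13.2 to 18.1 CPM against 4.17 to 8.14 CPM. Schwann cell markers, 4 of 5 called higher, summed to 66.2 to 74.0 CPM in NF-YA cKO and to 18.5, 17.2 and 69.5 CPM in the NF-YA fl/fl replicates 1, 2 and 3. Over all tested genes 4.65% were called higher and 7.67% lower. The sums of the muscle differentiation, SC and myoblast, macrophage and endothelial lists did not overlap between the genotypes, and the part of these cells in the results above was not tested.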

How the data were processed

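RNA was measured in cultured SCs of 2 genotypes with 3 libraries each (NF-YA cKO; NF-YA fl/fl as controls), with genotype and replicate number taken from the labels. Alignment by the authors used bowtie2 and the mm10 transcriptome of the mouse, and quantification used RSEM. Expected counts were deposited per gene and transcript, neither normalized nor filtered, and divide reads shared between transcripts. The deposited TPM values are scaled to effective length and keep no depth. The percent of gene TPM for each transcript is also deposited. The libraries were made with a stranded kit, and whether the counting used strand is not given in the sources used here.

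Expected counts were rounded. A gene entered the fit if its count exceeded 10 in 2 or more libraries, which kept 17348 genes, fitted with edgeR 4.0.16 (TMM, quasi-likelihood test, genotype as only factor) in R 4.3.3, with Benjamini-Hochberg adjustment (FDR) over all of them. The thresholds (FDR under 0.01, log2 fold change beyond 1) are those of the study's methods. The standard error is the log2 fold change divided by the square root of F. CPM are rounded counts relative to the TMM-scaled library size. Transcripts were compared by exact permutation tests. On simulated counts of 16999 genes, 200 of 200 changed genes were called in the right direction and 3 unchanged genes were called, with a median absolute error of 0.161. The simulation gave all genes and both genotypes the same spread, and changed only well-counted genes by clearly more than the threshold. In the real libraries the coefficient of variation was 0.310 in NF-YA fl/fl and 0.105 in NF-YA cKO. These rates therefore check the code and do not carry over to the real calls. Spread between libraries, not depth, limits most comparisons.

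Genes named are the 10 axis genes, the Igf1 and Igf2 transcripts, up to 3 called genes with the largest change in each other list, the 3 genes most like Igf1 and Igf2, and genes stated as chosen after their values were seen. Igf2bp2, Igf2os, Syt8, Mrpl23, Ins1, Ins2, Insrr, Airn, Pax7, Sdc4, Des, Cdh15, Ptprc, Itgam and Col3a1 fall outside this rule and were also chosen after their values were seen. The same holds for Lyz2, Ctss, C1qa, C1qb and Abcc9. The members and lists were chosen with earlier results of these data known. Coordinates are from GENCODE M21 (GRCm38), and plots were drawn with matplotlib 3.10.9. Alternatives comprised library totals, DESeq2 1.42.0 and edgeR with DESeq2's size factors, filterByExpr, no filter, limma 3.58.1 on log2(TPM + 1) and log2(TPM + 0.1), unrounded counts, an FDR under 0.05, the replicate number as a block, and leaving out each library.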

Additional observations from a re-analysis of the deposited data

How the results depend on the processing

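Under 16 alternatives the number of axis genes called stayed at 3 under DESeq2, other scaling or filters, limma on TPM and an FDR under 0.05. With each library left out it was 1 to 4. It was 1 without NF-YA cKO replicate 2 and 4 without NF-YA fl/fl replicate 3. Igf2r was called under all 16, Igf2 under 15 and H19 under 12. The log2 fold change of Igfbp4 turned to -0.20, -0.06 and -0.0095 without NF-YA cKO replicate 1, NF-YA fl/fl replicate 1 and NF-YA fl/fl replicate 3, and was 0.45 at the most, without NF-YA fl/fl replicate 2. The 4 calls among other pathway genes became 2 under limma on log2(TPM + 1) and 1 to 6 with a library left out, and the 5 calls among neighbours of Igf2 and H19 became 3 and 2 to 5. The 6 transcripts without overlap became 7 with any library left out. Fewer samples make non-overlap easier to reach. Over all genes, limma on log2(TPM + 1) called 177 higher and 668 lower, limma on log2(TPM + 0.1) called 279 higher, and leaving out a library gave 177 to 890 higher and 523 to 1684 lower.

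An FDR under 0.05 gave 2025 lower. The replicate numbers showed no clear pairing of the samples. Deviations of same-numbered libraries correlated by 0.17, -0.07 and 0.05, and those of differently numbered libraries by -0.14 to 0.10. With so few libraries this cannot show that the samples were unpaired. With the replicate number as a block, 3 axis genes, 3 other pathway genes and 4 neighbours were called, and 625 genes higher and 947 lower over all genes. Depth was not the main limit, since every axis gene had at least 179 counts in each library. The sex-linked expression that separates the genotypes could not be modelled.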
